A study of Mus musculus with 16 samples.

Results

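The 7 genes described here encode the RNA-binding proteins and regulators around the let-7 microRNAs: Lin28a, Lin28b, Trim71, Hmga2, Igf2bp1, Igf2bp2 and Igf2bp3. The members were selected on their estimated counts summed per gene across the TKO and WT libraries of all 4 days, so their levels and fold changes are given as a description with no test. They are 7 of the 35975 genes to which the transcripts in the tables were assigned. All 7 were among the 18489 genes that passed the filter on low counts and entered the fit. The libraries are polyadenylated mRNA sequencing of the mouse embryonic stem cell line ES-E14TG2a (E14), in 8 groups of 2 labelled biological replicates. The groups are cells labelled TKO and cells labelled WT, each at day 0, day 2, day 4 and day 7 of differentiation into epiblast-like cells. Each pair of replicates is treated as independent, and the labels do not say that they came from separate clones, so standard errors and p-values measure only the spread between these samples.

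At day 0 both genotypes had been kept on fibronectin in a defined serum-free medium with LIF, a Gsk3 inhibitor, a MEK inhibitor and vitamin C. From there on both received Fgf2, Activin A and a little knock-out serum, and at day 4 both were split once more with accutase. The labels do not expand TKO, name no cell clone and give 1 parental line for all groups. Because these are bulk libraries, fewer cells of a type and less RNA per cell cannot be told apart.

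let-7 microRNAs shorten the life of mRNAs whose 3′ untranslated region (3′ UTR) pairs with the microRNA's seed, and they accumulate as cells differentiate. Lin28a and Lin28b bind the terminal loop of the let-7 precursor, where a GGAG motif is part of the contact, and block its maturation; Lin28a does so by recruiting enzymes that add uridines to the precursor. The mRNAs of Lin28a, Lin28b, Trim71, Hmga2 and the Igf2bp family are themselves described as let-7 targets, so the proteins and the microRNA oppose each other. Stem cells of the naive state hold little Lin28a, and its rise is one of the known events of the passage to the primed state. The tables hold no microRNA gene, so let-7 itself was not analysed here.

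The mature let-7 sequences are shown because they define the pairing that is searched for in the 7 mRNAs. RefSeq (GRCm38.p6) lists 9 mature sequences of the mouse let-7 family with 1 common seed, bases 2 to 8 from the 5′ end, printed in capitals.
let-7a-5p: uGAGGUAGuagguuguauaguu
let-7b-5p: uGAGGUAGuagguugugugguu
let-7c-5p: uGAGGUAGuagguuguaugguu
let-7d-5p: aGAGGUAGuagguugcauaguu
let-7e-5p: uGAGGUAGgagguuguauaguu
let-7f-5p: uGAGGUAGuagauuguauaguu
let-7g-5p: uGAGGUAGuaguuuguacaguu
let-7i-5p: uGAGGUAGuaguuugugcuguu
miR-98-5p: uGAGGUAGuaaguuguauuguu

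The terminal loops are shown because they are the part of the precursor that the Lin28 proteins hold. Of the 12 hairpins in RefSeq, 9 have the letters GGAG in the loop between the mature arms, and the loops of let-7b, let-7c-2 and miR-98 do not. The capitals mark GGAG in a pair of loops that hold it, and the last loop holds none.
let-7g loop: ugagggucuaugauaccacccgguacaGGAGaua
let-7i loop: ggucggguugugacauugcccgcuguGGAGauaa
let-7b loop: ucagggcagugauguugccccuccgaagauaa

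The best seed matches of the members are shown because every one of the 7 mRNAs carries at least 1. The 3′ UTR of the protein-coding transcript with the highest mean TPM (a level corrected for library depth and transcript length) was searched on its own strand for CTACCTC, the 7 letters complementary to the seed, and for CTACCTCA, the same followed by the A that stands opposite base 1. The capitals mark the match, the coordinates are of the printed stretch on GRCm38 in the GENCODE vM21 annotation, all on the minus strand, and each lies within 1 exon.
Lin28a, chr4:134005189-134005211: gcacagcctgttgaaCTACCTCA
Lin28a, chr4:134004551-134004573: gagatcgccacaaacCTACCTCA
Lin28b, chr10:45381022-45381044: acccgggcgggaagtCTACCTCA
Trim71, chr9:114512472-114512494: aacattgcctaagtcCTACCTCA
Trim71, chr9:114512376-114512398: agtgataatttctatCTACCTCA
Hmga2, chr10:120364224-120364246: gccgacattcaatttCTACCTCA
Igf2bp1, chr11:95961778-95961800: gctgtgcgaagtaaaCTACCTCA
Igf2bp2, chr16:22059473-22059495: acacacaaataaaagCTACCTCA
Igf2bp3, chr6:49086787-49086809: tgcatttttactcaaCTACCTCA

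Each of the 7 members held the 8-letter match, against 3.1% of the 16145 genes tested that have an annotated 3′ UTR; 8.7% of those held the 7-letter match, which contains the shorter form of every 8-letter one. The members' 3′ UTRs are long, and length raises the chance of a match: the median was 2977 bases in the members, against 893 bases over all 16145. Among 3′ UTRs within 25% of the length of that of Igf2bp1 (6337 bases), 13.0% held the 8-letter match, and for Igf2bp2 (1784 bases) the share was 3.6%. Trim71 had 4 matches of 8 letters, Igf2bp1 had 3, Lin28a had 2, and Lin28b, Hmga2, Igf2bp2 and Igf2bp3 had 1 each. Lin28b and Hmga2 each held 3 further matches of 7 letters and Igf2bp1 held 1. The first match lay 21 bases into the 3′ UTR in Hmga2 and 36 bases in Lin28b. The members were grouped as genes of the let-7 axis and are described as its targets, so a match in each is a description, not a test. A match is a sequence feature, not a measured site of binding.

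**Figure D1:**
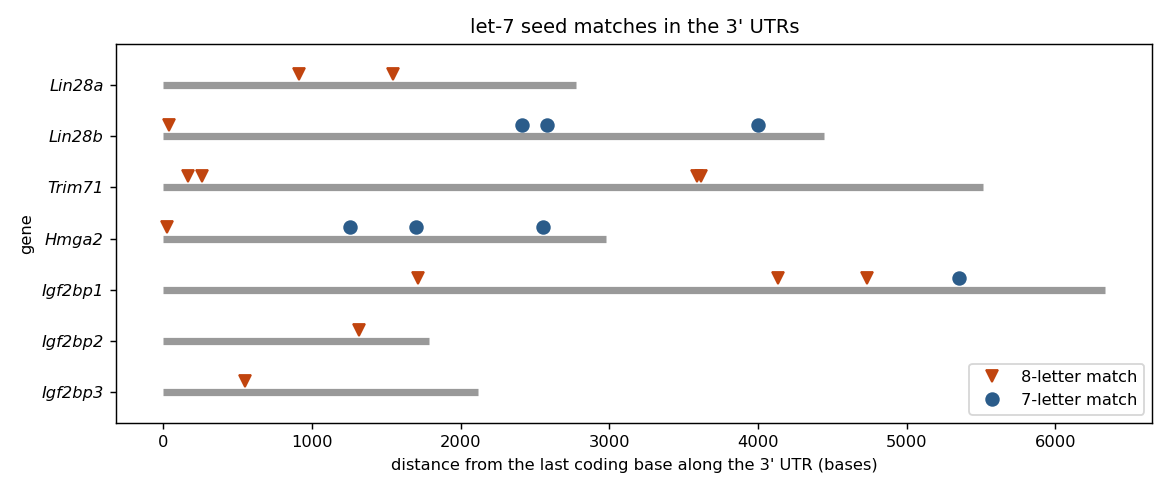
Positions of let-7 seed matches along the 3′ UTR of each of the 7 genes. The grey bar is the 3′ UTR to scale, the x axis is the distance from the last coding base in bases, triangles are 8-letter matches and circles 7-letter matches; Trim71 has 4 triangles and Hmga2 has 1 triangle and 3 circles.

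Each library held between 33168178 and 58197630 estimated counts, and a gene's level below is given as CPM (counts per gene scaled to a common library size after TMM normalisation). Dnmt1, the maintenance DNA methyltransferase, stood at 36.2 to 55.9 CPM in the 8 TKO libraries, against 310.3 to 545 CPM in the 8 WT libraries. Of genes at 5 CPM or more, 166 were over 2-fold apart between the TKO day 4 replicates and 116 between the WT day 0 replicates. The number was 80 for WT day 4 and at most 14 in the other groups. The median absolute log2 difference between replicates was 0.12 in TKO day 4, 0.22 in WT day 0 and 0.11 in WT day 4. In WT day 2 it was 0.13, above that of TKO day 4 and WT day 4. Dnmt3a was at 187 and 33.9 CPM in the 2 TKO day 4 libraries. The summed level of 7 detected streak and mesoderm markers at day 7 was 803 and 826 CPM in TKO, against 161 and 134 CPM in WT; 6 of the 7 rose in TKO, where 23.4% of all genes tested were called higher, none was at 0 in both libraries of either genotype, and an eighth, Mesp1, did not pass the filter. The naive marker sum at day 4 was 164 and 138 CPM in TKO, against 59.2 and 67.2 CPM in WT, and 8 of 11 rose where 17.8% of all genes were called higher. The part of these differences in the members' values was not tested.

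Lin28a, which recruits the uridylating enzymes to the let-7 precursor, was the member whose genotype difference turned over most between day 0 and the later days. At day 0 it stood at 58.3 and 58.5 CPM in the TKO libraries, against 27.7 and 29.2 CPM in the WT libraries. Both TKO libraries lay above both WT libraries, and the difference was 1.04 ± 0.08 on the log2 scale (standard error of the edgeR fit, TKO over WT, 2 libraries a group throughout). At day 2 Lin28a had 509 and 519 CPM in TKO, against 653 and 684 CPM in WT, a log2 difference of -0.38 ± 0.08. At day 4 it had 270.5 and 258 CPM in TKO, against 448 and 428 CPM in WT (-0.73 ± 0.08). From day 2 on, then, every TKO library lay below every WT library of its day. At day 7 it had 277 and 241 CPM in TKO, against 588 and 576 CPM in WT, a log2 difference of -1.17 ± 0.08, or 2.25-fold lower in TKO. The 4 genotype differences come from different libraries on each day.

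Against its own day 0, Lin28a was 8.79-fold higher at day 2, 4.52-fold at day 4 and 4.43-fold at day 7 in TKO cells, and 23.5-fold, 15.4-fold and 20.4-fold higher in WT cells. The 3 values within a genotype share the same day 0 libraries. Ranked by CPM, the groups of Lin28a ran WT day 2, WT day 7, TKO day 2, WT day 4, TKO day 4, TKO day 7, TKO day 0 and WT day 0, and of the neighbours in that order TKO day 4 and TKO day 7 alone overlapped. The WT level at day 7 was thus close to its highest, while the TKO level at day 7 was about that of day 4.

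Lin28b, the paralog that blocks let-7 processing as well, was nearly silent at day 0 in both genotypes. It stood at 3.56 and 3.26 CPM in TKO day 0 libraries, against 3.89 and 4.30 CPM in WT day 0 libraries. The TKO pair lay below the WT pair (log2 difference -0.26 ± 0.11), though on the TPM scale the groups overlapped, at 1.13 and 1.03 in TKO and 1.00 and 1.33 in WT. At day 2 Lin28b had 73.1 and 67.2 CPM in TKO, against 82.7 and 78.9 CPM in WT. At day 4 it had 105 and 112 CPM in TKO, against 156 and 154 CPM in WT. The log2 difference was -0.20 ± 0.08 at day 2, -0.51 ± 0.08 at day 4 and -0.63 ± 0.08 at day 7, with every TKO library below every WT library on each of these days in CPM; on the TPM scale the day 2 groups overlapped, at 21.04 and 19.9 in TKO and 22.3 and 19.003 in WT. At day 7 the values were 93.6 and 83.6 CPM in TKO, against 136 and 138 CPM in WT.

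Lin28b had the widest range of the 7 genes, 46.2-fold between its lowest and highest library on the TPM scale, against 27.7-fold for Lin28a and 2.04-fold for Trim71. Against day 0 it was 20.6-fold, 31.8-fold and 26.0-fold higher at days 2, 4 and 7 in TKO cells, and 19.7-fold, 37.8-fold and 33.4-fold higher in WT cells. Its groups ran WT day 4, WT day 7, TKO day 4, TKO day 7, WT day 2, TKO day 2, WT day 0 and TKO day 0, and no neighbours in that order overlapped. In CPM, Lin28a reached its WT peak at day 2 and Lin28b at day 4. On the TPM scale the WT day 2 and WT day 7 groups of Lin28a overlapped, at 273.5 and 252 and at 269 and 266. Per length, Lin28a was the more abundant in every group: at day 7 its mean level was 134 TPM in TKO and 268 TPM in WT, while that of Lin28b was 29.3 TPM in TKO and 41.2 TPM in WT.

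**Figure D2:**
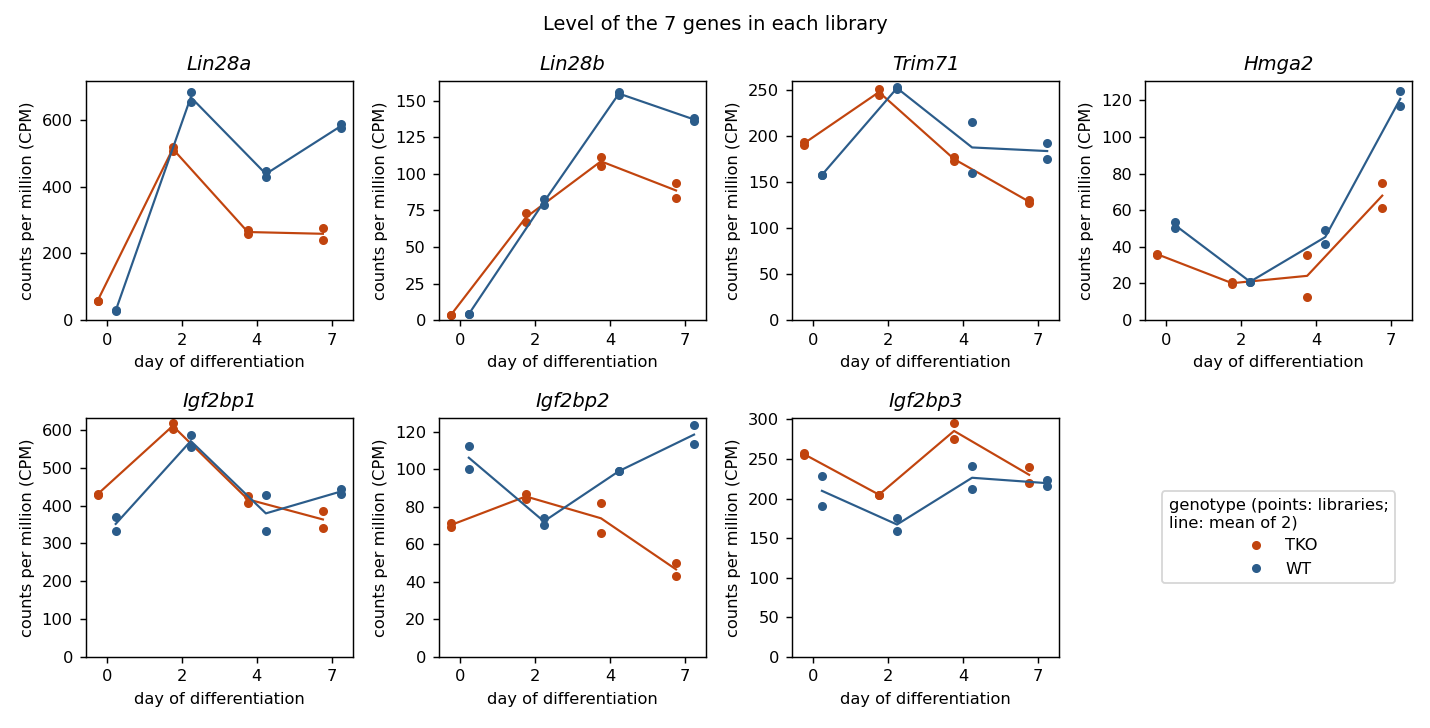
Level of each of the 7 genes in CPM (y axis, linear from 0) by day of differentiation (x axis); points are single libraries, lines join the means of 2 libraries, and TKO points are drawn left of WT points. At day 7 both TKO libraries of Lin28a, Lin28b, Trim71, Hmga2, Igf2bp1 and Igf2bp2 lie below both WT libraries, and those of Igf2bp3 overlap with WT.

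Trim71, a ubiquitin ligase and mRNA repressor that is one of the founding let-7 targets, was highest at day 2 in both genotypes. At day 0 it had 191 and 193 CPM in TKO, against 157 and 158 CPM in WT, a log2 difference of 0.28 ± 0.10. At day 2 it had 245 and 251 CPM in TKO, against 251 and 254 CPM in WT (-0.03 ± 0.10), and the groups overlapped; on the TPM scale they did not, at 37.8 and 39.9 in TKO and 37.1 and 33.2 in WT. At day 4 it had 177 and 173 CPM in TKO, against 215 and 160.2 CPM in WT (-0.10 ± 0.10). There the TKO libraries lay between the 2 WT libraries, and without WT day 4 replicate 1 the difference was 0.13. At day 7 it had 130.5 and 127 CPM in TKO, against 175 and 192 CPM in WT, and both TKO libraries lay below WT (-0.51 ± 0.10). Against day 0, the day 7 level of Trim71 differed by -0.58 ± 0.10 in TKO cells and 0.22 ± 0.10 in WT cells. Its order was WT day 2, TKO day 2, TKO day 0, WT day 4, WT day 7, TKO day 4, WT day 0 and TKO day 7. In that order the first pair overlapped, and so did each pair of neighbours from the third to the sixth.

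Hmga2, a chromatin protein of the high mobility group and the most studied let-7 target, was lowest at day 2 by its group means and highest at day 7. At day 0 it had 36.3 and 35.8 CPM in TKO, against 50.1 and 53.7 CPM in WT. At day 2 it had 19.5 and 20.8 CPM in TKO, against 21.04 and 20.9 CPM in WT, which leaves the genotypes almost level. At day 7 it had 74.8 and 61.2 CPM in TKO, against 125 and 117 CPM in WT. The log2 difference between genotypes was -0.53 ± 0.32 at day 0, -0.06 ± 0.33 at day 2 and -0.83 ± 0.32 at day 7. At day 4 the TKO libraries were far apart, at 35.6 and 12.7 CPM, against 49.2 and 41.4 CPM in WT; the difference was -0.90 ± 0.32 with both, -1.84 without TKO day 4 replicate 1 and -0.35 without replicate 2. Its groups ran WT day 7, TKO day 7, WT day 0, WT day 4, TKO day 0, TKO day 4, WT day 2 and TKO day 2, and of the neighbours TKO day 4 and WT day 2 alone overlapped.

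On the log2 scale, the difference of Hmga2 from its own day 0 was -0.84 ± 0.33, -0.57 ± 0.33 and 0.92 ± 0.32 for days 2, 4 and 7 in TKO cells, and -1.31 ± 0.33, -0.19 ± 0.32 and 1.22 ± 0.32 for the same days in WT cells. The order of Lin28 and Hmga2 in time was therefore not the same: at day 2 both Lin28 mRNAs were far above their day 0 level in both genotypes, while Hmga2 was below its own. The TKO day 4 value of Hmga2 was -1.51 without TKO day 4 replicate 1, which is below its day 2 value, and -0.03 without replicate 2.

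The Igf2bp proteins bind mRNAs in the cytoplasm and shield some of them from decay, among them let-7 targets. Per length, summed over all transcripts of a gene, the median over the 16 libraries was 116 TPM for Igf2bp1, 83.5 TPM for Igf2bp3 and 37.6 TPM for Igf2bp2. The sum for Igf2bp1 includes short processed transcripts, and by the main protein-coding transcript alone the order was not fixed: at TKO day 4, Igf2bp3-201 had 103 and 95.5 TPM, against 73.8 and 70.1 TPM for Igf2bp1-201. At day 0 Igf2bp1 had 431 and 429 CPM in TKO, against 332 and 371 CPM in WT. At day 7 it had 385 and 342 CPM in TKO, against 432 and 443 CPM in WT. The TKO libraries thus lay above WT at day 0 (0.29 ± 0.11 on the log2 scale) and below WT at day 7 (-0.27 ± 0.11). At day 2 it had 604 and 618 CPM in TKO, against 587 and 555 CPM in WT (0.10 ± 0.11), and at day 4 it had 426 and 407 CPM in TKO, against 427 and 332 CPM in WT (0.13 ± 0.11, groups overlapping; -0.03 without WT day 4 replicate 2). With the deposited effective lengths as an offset, the difference of Igf2bp1 was 0.52 at day 0 and 0.36 at day 4. On the TPM scale its day 7 groups overlapped, at 114 and 103 in TKO and 109 and 111 in WT. It was highest at day 2 in both genotypes, and in the order TKO day 2, WT day 2, WT day 7, TKO day 0, TKO day 4, WT day 4, TKO day 7 and WT day 0 the last 4 overlapped each with the next.

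Igf2bp2 had the largest day 7 difference of the 7 genes. At day 7 it had 49.9 and 43.3 CPM in TKO, against 123 and 113 CPM in WT, a log2 difference of -1.35 ± 0.10, or 2.54-fold lower in TKO. At day 0 it had 71.1 and 69.2 CPM in TKO, against 100.1 and 112 CPM in WT (-0.60 ± 0.10). At day 2 the direction was the opposite, with 84.3 and 86.6 CPM in TKO, against 74.0 and 70.2 CPM in WT (0.24 ± 0.10). At day 4 it had 81.7 and 65.9 CPM in TKO, against 99.1 and 98.8 CPM in WT (-0.42 ± 0.10). By the summed CPM, both TKO libraries lay outside the WT pair on all 4 days, below it on days 0, 4 and 7. Relative to day 0, Igf2bp2 at day 7 differed by -0.59 ± 0.10 in TKO and 0.16 ± 0.10 in WT. Its groups ran WT day 7, WT day 0, WT day 4, TKO day 2, TKO day 4, WT day 2, TKO day 0 and TKO day 7; TKO day 4 and WT day 2 overlapped, as did WT day 2 and TKO day 0.

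Igf2bp3 was the member that was never lower in TKO than in WT with the libraries apart. At day 0 it had 255 and 257 CPM in TKO, against 191 and 229 CPM in WT (0.29 ± 0.10). At day 2 both TKO libraries were at 205 CPM, against 176 and 159 CPM in WT (0.29 ± 0.10). At day 4 it had 295 and 276 CPM in TKO, against 241 and 212 CPM in WT (0.34 ± 0.10). On these 3 days both TKO libraries lay above both WT libraries. At day 7 the groups overlapped, at 239.9 and 220.2 CPM in TKO and 224 and 215 CPM in WT (0.07 ± 0.10; -0.03 without TKO day 7 replicate 1), while on the TPM scale both TKO libraries, at 100.2 and 92.5, lay above both WT libraries, at 83.1 and 83.8. It was lowest at day 2 in both genotypes, where Igf2bp1 was highest. In the order TKO day 4, TKO day 0, TKO day 7, WT day 4, WT day 7, WT day 0, TKO day 2 and WT day 2, the third to the seventh overlapped each with the next.

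Counted over the 7 genes in CPM, the TKO libraries at day 0 were both above WT for 4 and both below for 3, where 23.9% and 29.6% of all genes tested did so. At day 2 the counts were 3 above and 3 below, beside 30.5% and 31.8% of all genes. At day 4 they were 1 above and 4 below, beside 32.4% and 30% of all genes. At day 7 none was above and 6 were below, beside 39.5% and 39.7% of all genes. The median log2 difference of the 7 was 0.28 at day 0, -0.03 at day 2, -0.42 at day 4 and -0.63 at day 7, while that of all genes tested stayed between -0.03 and 0.01. In time, day 7 libraries lay above day 0 for 3 and below for 4 of the 7 in TKO (45.5% and 42.3% of all genes), and above for 6 and below for none in WT (39.4% and 40.6% of all genes). These counts describe genes chosen for their pattern.

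**Figure D3:**
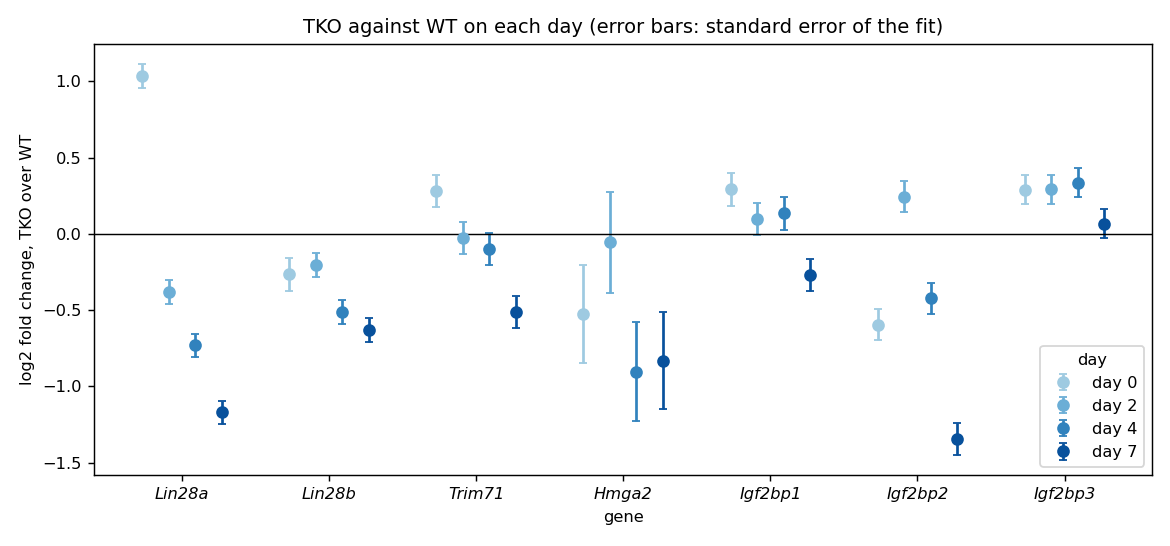
Log2 fold change of TKO over WT (y axis) for each of the 7 genes (x axis) on days 0, 2, 4 and 7 from light to dark; points are fitted values and bars the standard error, with 2 libraries a group. Lin28a is at 1.04 at day 0 and -1.17 at day 7, and the day 7 point lies under 0 for every gene but Igf2bp3, at 0.07.

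The members did not share 1 course. Over the 8 group means of log2 CPM, Lin28a and Lin28b had a Pearson correlation of 0.92 and Trim71 and Igf2bp1 one of 0.90, whereas that of Trim71 and Hmga2 was -0.61 and that of Lin28a and Hmga2 -0.11. Among 10961 protein-coding genes at 5 CPM or more, those most alike over the 8 means were Slx4ip, Chd1 and Fads2 for Lin28a (0.99 each) and Esrp1, Arhgef28 and Otx2 for Lin28b (0.997, 0.997 and 0.996). For Trim71 they were Troap (0.99) and Tmem79 (0.97), and for Hmga2 they were Ryk (0.99), Nlk (0.97) and Msantd4 (0.96). For Igf2bp1 they were Cip2a (0.98), Jarid2 (0.97) and Nup35 (0.96), for Igf2bp2 Setd4 (0.94), Syde2 (0.91) and Pmvk (0.91), and for Igf2bp3 Atp7a (0.94), Galnt2 (0.92) and Foxm1 (0.91). The means share libraries and a common time course, so these values are a description.

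How transcripts are shared out within a gene was not used to choose the members and could be tested. One protein-coding transcript held nearly all estimated counts of Lin28a (99.7% to 100% in the 16 libraries), Igf2bp3 (97.4% to 98.9%), Igf2bp1 (95.2% to 98.4%) and Hmga2 (91.8% to 98.4%), and Trim71 has 1 annotated transcript. Lin28b-201 held 80.2% to 97.4%, and its rest was mainly the processed transcript Lin28b-202. At day 0 Lin28b-202 held 13.0% and 11.6% of the Lin28b counts in TKO, against 19.4% and 19.8% in WT. Usage differed between genotypes by the Simes test of edgeR's diffSpliceDGE for none of the 6 members with 2 or more transcripts, on any of the 4 days, where 2.17%, 1.6%, 1.34% and 2.22% of 12279 genes were called at days 0, 2, 4 and 7. The lowest adjusted p values were 0.224 for Igf2bp2 and 0.512 for Lin28b, both at day 0, and at an unadjusted p under 0.05 Igf2bp2 at day 0 (0.0118) was the 1 member. By the gene-level F test of the same fit, Lin28b at day 0 had an adjusted p of 0.000577.

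Igf2bp2 was the member whose counts were spread over several transcripts. Igf2bp2-201 held 34.9% to 70.6% of its counts, the second protein-coding form Igf2bp2-202 held 0 to 27.8%, and the retained-intron transcript Igf2bp2-207 held 2.72% to 49.5%. At day 0, Igf2bp2-207 held 5.14% and 2.72% in TKO, against 44.1% and 14.98% in WT; Igf2bp2-202 held 26.3% and 25.5% in TKO, against 0 and 22.2% in WT. WT replicate 1 alone was at 0, and without WT day 0 replicate 2 the adjusted p of Igf2bp2 was 2.51e-09. At day 7, Igf2bp2-207 held 10.4% and 22.8% in TKO, against 4.90% and 7.37% in WT. The estimates for this gene differed between replicates of 1 group by as much as between genotypes.

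Genes of the machinery that makes, tails and degrades let-7 were called in both directions. Of a list of 21 such genes, TKO cells had 3 higher and 3 lower at day 0, where 4.52% of all genes tested were called higher and 8.16% lower. They had 2 higher and 1 lower at day 2 (7.91% and 5.52% of all genes), 1 higher and 3 lower at day 4 (17.8% and 11.1%), and 3 higher and 4 lower at day 7 (23.4% and 21.1%). Its median log2 difference was 0.08, 0.08, -0.11 and 0.05 on the 4 days. With the 4 day 0 libraries fitted alone, none of the 21 was called at day 0, and the day 0 count was 10 without WT replicate 2, 2 without TKO replicate 1 and 1 without TKO replicate 2. It was 1 at day 2 without replicate 2 of either genotype, 2 at day 4 without WT replicate 2, and 4 at day 7 without either WT library or without TKO replicate 2.

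At day 0 Khsrp, which binds the let-7 loop and speeds processing, rose to 167 and 169 CPM in TKO, against 129 and 137 CPM in WT (0.33 ± 0.07, adjusted p = 0.00673, edgeR quasi-likelihood test with Benjamini-Hochberg adjustment here and below). Xpo5, the export receptor of precursors, rose by 0.25 ± 0.07 (adjusted p = 0.0393), and at day 7 it fell by 0.30 ± 0.07 (adjusted p = 0.00493). Prkra, a partner of Dicer, fell to 7.88 and 8.11 CPM in TKO, against 16.8 and 12.3 CPM in WT (adjusted p = 0.00162), and Dis3l2, the exonuclease that removes uridylated let-7 precursors, fell by 0.41 ± 0.09 (adjusted p = 0.0079). At day 7 Msi1, an RNA-binding protein described as a helper of Lin28 in the nucleus, fell to 29.8 and 32.0 CPM in TKO, against 73.6 and 71.4 CPM in WT (-1.23 ± 0.08, adjusted p = 4.3e-08). On day 2, by contrast, Msi1 rose, at 31.8 and 35.3 CPM in TKO, against 23.2 and 23.9 CPM in WT (adjusted p = 0.00115). Ago4, an Argonaute of low abundance, rose on days 2, 4 and 7, and at day 7 it had 3.39 and 3.50 CPM in TKO, against 1.30 and 1.42 CPM in WT (adjusted p = 9.48e-05). At day 2 Ago4 was lower still, at 1.23 and 1.29 CPM in TKO, against 0.67 and 0.49 CPM in WT. Hnrnpa1, which restrains let-7 processing, fell on all 4 days, by 0.37, 0.28, 0.35 and 0.36 on the log2 scale, with adjusted p values of 0.0105, 0.0365, 0.0061 and 0.00284. Tarbp2, another Dicer partner, rose at day 7 by 0.28 ± 0.09 (adjusted p = 0.0212). With the libraries of the comparison fitted alone, the calls of Khsrp, Xpo5, Prkra, Dis3l2 and Hnrnpa1 at day 0, Hnrnpa1 at day 2 and Ago4 at day 4 were lost (edgeR adjusted p between 0.0573 and 0.221). Calls were also lost without 1 library: Khsrp without either TKO day 0 library (0.0527 and 0.0638), Xpo5 without either of them or WT day 0 replicate 1 (up to 0.208), Dis3l2 without TKO day 0 replicate 2 (0.14), Hnrnpa1 at day 0 without either TKO library (0.107 and 0.0799), Ago4 at day 2 without replicate 2 of TKO or WT (0.0652 and 0.0895), Hnrnpa1 at day 2 without WT replicate 2 or either TKO library (up to 0.286), and Tarbp2 without TKO day 7 replicate 2 or either WT library (up to 0.204). With the effective-length offset the calls of Xpo5 at day 0 (0.0599), Hnrnpa1 at day 2 (0.0558) and Ago4 at days 2 and 4 (0.12 and 0.218) were lost.

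In time, 6 of the 21 rose and 6 fell at day 7 against day 0 in TKO cells, where 36.1% of all genes tested were called higher and 31.7% lower, and 4 rose and 6 fell in WT cells (32.9% and 33.2%). The TKO count of 12 was 7 or 5 without day 0 replicate 1 or 2, 5 or 6 without day 7 replicate 1 or 2, and 7 with no filter on low counts. Trim25, a cofactor of the uridylation that Lin28a sets off, fell in both genotypes: it had 6.15 and 6.91 CPM at day 7, against 199 and 201 CPM at day 0 in TKO (adjusted p = 2.95e-10), and 5.24 and 6.87 CPM at day 7, against 189.5 and 213 CPM at day 0 in WT (adjusted p = 2.41e-10). So the mRNA of this cofactor and that of Lin28a went opposite ways over the same days. Dicer1 rose in both, by 0.79 ± 0.10 in TKO cells (adjusted p = 1.33e-05) and by 0.94 ± 0.10 in WT cells (adjusted p = 2.36e-06). So did Prkra, by 1.62 ± 0.14 in TKO cells (adjusted p = 1.76e-07) and by 0.98 ± 0.13 in WT cells (adjusted p = 1.75e-05). Xpo5 rose by 0.19 ± 0.07 in TKO cells (adjusted p = 0.0374) and by 0.73 ± 0.07 in WT cells (adjusted p = 8.62e-07); its TKO call was lost without any 1 of the 4 libraries (up to 0.226), with no filter (0.126) and with the offset (0.0545).

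Other mRNAs described as let-7 targets were counted from a list of 30 that leaves the members out. In TKO cells 4 rose and none fell at day 0, 4 rose and 2 fell at day 2, 4 rose and 7 fell at day 4, and 6 rose and 11 fell at day 7, beside the same shares of all genes tested as for the processing genes. The median log2 difference of the list was 0.12, 0.05, -0.03 and -0.17 on the 4 days, where the members' median passed from 0.28 to -0.63. With the 4 day 0 libraries fitted alone, none of the 30 was called at day 0, and with the 4 day 4 libraries alone 7 were called at day 4. The day 0 count was 9 without WT replicate 2, 2 without TKO replicate 1 and 1 without TKO replicate 2; the day 2 count was 2 without WT replicate 2 or either TKO library, the day 4 count 7 without WT replicate 1, and the day 7 count 11 without WT replicate 1. Over time 21 of 30 rose and 4 fell by day 7 in TKO and 23 rose and 3 fell in WT, with medians of 0.63 and 0.91, against 0.04 and -0.03 over all genes. Of all genes tested, 36.1% were called higher and 31.7% lower over time in TKO, and 32.9% and 33.2% in WT. Of the 30, 20 held the 7-letter match in the 3′ UTR and 14 the 8-letter one.

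Nr6a1, a nuclear receptor with many let-7 sites in its mRNA, had the lowest adjusted p of the list at day 7. It fell to 60.4 and 59.9 CPM in TKO, against 118 and 129 CPM in WT (-1.04 ± 0.08, adjusted p = 5.18e-07), and fell at day 4 too (-0.80 ± 0.08, adjusted p = 1.38e-05). Hmga1, the relative of Hmga2, fell at day 7 to 228 and 233 CPM in TKO, against 349 and 341 CPM in WT (-0.58 ± 0.07, adjusted p = 1.16e-05). In the other direction at day 7, Igdcc3, a membrane protein, rose to 81.2 and 78.3 CPM in TKO, against 31.6 and 30.8 CPM in WT (1.35 ± 0.15, adjusted p = 1.01e-05), and Gatm, an enzyme of creatine synthesis, rose by 1.13 ± 0.16 (adjusted p = 7.64e-05). Igdcc3 holds 2 matches of 8 letters in its 3′ UTR. The list was thus mixed in sign at day 7. The 7 members were chosen on their levels and were not tested. None of them had both TKO libraries above WT in CPM, while Igf2bp3 did on the TPM scale.

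Myc changed sign between days: it rose in TKO at day 0, with 3.73 and 4.59 CPM in TKO, against 2.41 and 2.61 CPM in WT (adjusted p = 0.00517), fell at day 2 by 0.38 ± 0.10 (adjusted p = 0.0255) and rose at day 4 by 0.57 ± 0.10 (adjusted p = 0.00122). Arid3a, a DNA-binding protein, rose at day 0 by 0.44 ± 0.09 (adjusted p = 0.00521) and at day 2 by 0.65 ± 0.09 (adjusted p = 0.000866), and fell at day 4 by 0.30 ± 0.09 (adjusted p = 0.019) and at day 7 by 0.23 ± 0.08 (adjusted p = 0.0366). Cdk6 rose at day 2 (0.84 ± 0.14, adjusted p = 0.00208) and fell at day 7 (-0.36 ± 0.13, adjusted p = 0.0381). Mycn fell at day 2 (-0.44 ± 0.10, adjusted p = 0.0121) and at day 7 (adjusted p = 0.00114), and Zfp36l1 rose at day 4 (0.42 ± 0.09, adjusted p = 0.00333). The day 0 calls of Myc and Arid3a were lost with the 4 day 0 libraries alone (edgeR adjusted p = 0.0982 and 0.0829), and that of Myc without TKO day 0 replicate 2 (0.0668). At day 2 the calls of Myc and Mycn were lost without WT replicate 2 (0.235 and 0.114), TKO replicate 1 (0.196 and 0.0749) or TKO replicate 2 (0.07 and 0.102), and those of Myc and Cdk6 with the effective-length offset (0.089 and 0.052). The fall of Arid3a was lost at day 4 with the 4 libraries alone (0.134), the offset (0.0556), or without WT replicate 1 or TKO replicate 2 (0.116 and 0.146), and at day 7 with RLE size factors (0.0522), no filter (0.0569), or without WT replicate 1 or TKO replicate 2 (0.135 and 0.143). That of Cdk6 at day 7 was lost with the stricter filter (0.0581) and without WT replicate 2 or either TKO library (up to 0.226). Over time Myc had the lowest adjusted p of the list in both genotypes and rose to 57.6 and 55.8 CPM at day 7 in TKO and 57.4 and 54.8 CPM at day 7 in WT, while Cdc25a fell by 0.80 in TKO and by 0.65 in WT on the log2 scale. Hic2 also fell in both genotypes, with 59.2 and 54.99 CPM at day 7, against 130.3 and 131 CPM at day 0 in TKO (adjusted p = 4.37e-07), and by 0.65 on the log2 scale in WT.

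**Figure D4:**
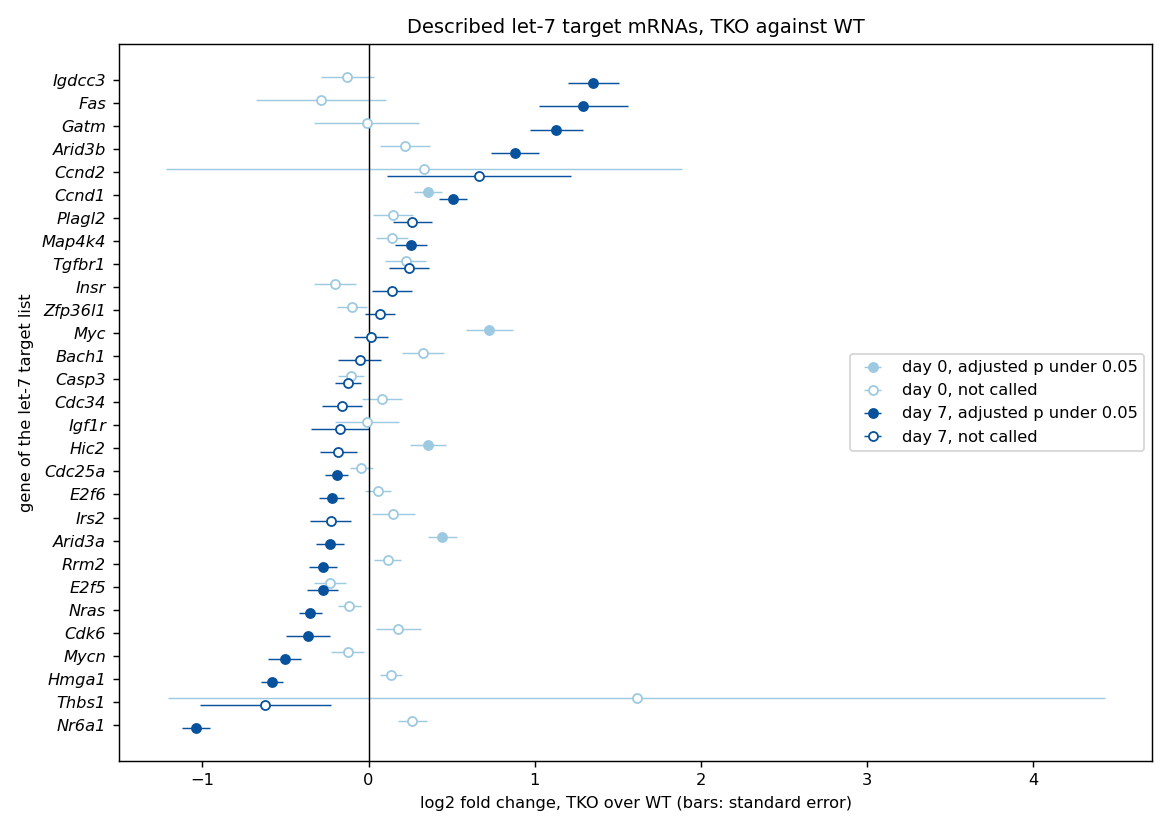
Log2 fold change of TKO over WT (x axis) for 29 of the 30 listed let-7 target genes (y axis), at day 0 in light blue and day 7 in dark blue; bars are standard errors, and filled points have an adjusted p under 0.05 in the edgeR test. At day 7, 6 filled points lie right of 0 and 10 left of it, with Nr6a1 at -1.04 and Igdcc3 at 1.35.

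A wider set was taken from the sequence alone: 493 3′ UTRs, those of the 7 members among them, hold the 8-letter match. Joined by gene symbol, they gave 487 genes tested with the members left out. At day 7, TKO cells had 25.1% of them called higher and 19.9% called lower, with a median log2 difference of 0.06, where all genes tested had 23.4% and 21.1% and a median of 0.00. At day 0 the shares were 6.2% higher and 6.8% lower, against 4.52% and 8.16% of all genes. At day 2 they were 14.6% higher and 3.3% lower, against 7.9% and 5.5% of all genes. The day 2 median was 0.08, against -0.01 over all genes. At day 4 the shares were 20.5% and 14.2%, against 17.8% and 11.1% of all genes. The sets were not matched for the length of the 3′ UTR. From day 0 to day 7, 41.3% were higher and 25.5% lower in TKO (36.1% and 31.7% of all genes), and 38.4% were higher and 27.7% lower in WT (32.9% and 33.2%).

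Trim71 is described as a repressor of several mRNAs, 6 of which were listed, and none of the 6 holds a let-7 match. In TKO cells 1 rose and 1 fell at day 0, 2 rose at day 2, 2 rose at day 4 and 3 rose at day 7, with none falling after day 0, beside the same shares of all genes tested as for the processing genes (23.4% higher and 21.1% lower at day 7). Cdkn1a, the cell-cycle inhibitor p21, fell at day 0 to 222 and 226 CPM in TKO, against 359 and 303 CPM in WT (-0.56 ± 0.09, adjusted p = 0.00134). It rose at day 2 (0.58 ± 0.09, adjusted p = 0.00138), at day 4 (1.35 ± 0.09, adjusted p = 4.15e-07) and at day 7, to 260.4 and 266 CPM in TKO, against 141 and 127 CPM in WT (0.97 ± 0.09, adjusted p = 1.76e-06). Rbl2, a pocket protein that holds back the cell cycle, rose at day 7 to 10.9 and 11.8 CPM in TKO, against 4.61 and 4.08 CPM in WT (1.39 ± 0.11, adjusted p = 5.24e-07), and at day 2 (adjusted p = 0.0105). Mbnl1, a splicing factor, rose at day 4 (adjusted p = 0.00582) and at day 7, to 24.5 and 22.6 CPM in TKO, against 11.4 and 13.8 CPM in WT (0.90 ± 0.16, adjusted p = 0.000543). The call of Cdkn1a at day 0 was lost with the 4 day 0 libraries alone (edgeR adjusted p = 0.0843), that of Rbl2 at day 2 without WT replicate 2, TKO replicate 1 or TKO replicate 2 (0.0993, 0.0543 and 0.102) or with the effective-length offset (0.0641), and that of Mbnl1 at day 4 without WT replicate 2 (0.0526).

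Egr1, an immediate-early transcription factor, rose at day 0 to 88.7 and 91.4 CPM in TKO, against 7.06 and 6.73 CPM in WT (3.71 ± 0.32, adjusted p = 5.49e-05), and at day 7 it stood at 74.2 and 82.7 CPM in TKO, against 85.2 and 85.9 CPM in WT (adjusted p = 0.748). Rbl1 and the receptor Plxnb2 were called on none of the 4 days, with adjusted p values at day 7 of 0.826 and 0.918.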

How the data were processed

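The deposited tables are kallisto output, 1 per library: per the file headers, each transcript has an estimated count, a TPM value (a level scaled for depth and transcript length) and an effective length. Per the submitters' processing notes the builds are GRCm38 and mm10; the kallisto version and the annotation are not given in the sources used here. Of 119414 transcripts, 116728 (97.8%) matched GENCODE vM21 by Ensembl ID without version; the others held 0.95% to 1.05% of a library's counts. For each gene, the authors' estimated counts of its transcripts were added up, rounded to whole numbers and scaled by TMM. They were tested with edgeR 4.0.16 (R 4.3.3; filterByExpr, robust quasi-likelihood fit of 8 group means over 16 libraries, Benjamini-Hochberg adjustment over 18489 genes, called at 0.05). The deposited TPM values were summed per gene for levels between genes, and the authors' effective lengths entered 1 alternative. Standard errors are the fold change over the root of F. Transcript usage was tested with diffSpliceDGE over 12279 genes. On simulated counts of day 7, the planned gene-level F test made 70 false calls and recovered 94.4% of 198 genes changed 3-fold. The Simes p made 18 false calls and recovered 78.3%, so Simes was used, at a cost in recovery. The test of summed gene counts recovered 47.8% of 67 genes changed 1.5-fold and 100% of those changed 2-fold at day 7, with 11 false calls. In that simulation every gene had the same spread, and only genes at 5 CPM or more were changed. The recovery therefore does not cover genes of wider spread or lower level. DESeq2 1.42.0 was an alternative.

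Members and lists were chosen with earlier results of these data known. Named list genes are, per comparison and list, up to 2 called genes per direction with the lowest adjusted p, and all 6 Trim71 targets; their calls in further comparisons were added after their values were seen. Genes most like a member have the highest Pearson correlation over the 8 means. Results of 2 genes that these rules name are not reported here. Total counts set the precision, and standard errors cover the spread between libraries.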

Additional observations from a re-analysis of the deposited data

Results flagged for a closer look

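The difference between genotypes had opposite signs on 2 days, with the libraries apart on both, for several of the 7 genes; this change of the difference was not tested, since the genes were chosen for their pattern. For Lin28a the TKO over WT log2 difference changed by -1.42 between day 0 and day 2, by -1.77 between day 0 and day 4 and by -2.21 between day 0 and day 7. For Trim71 it changed by -0.80 between day 0 and day 7, and for Igf2bp1 by -0.56. For Igf2bp2 it changed by 0.84 between day 0 and day 2 by the summed counts. Taken alone and on the TPM scale, the transcript Igf2bp2-201 overlapped between genotypes at day 0. Likewise some genes moved in opposite directions in time, with all libraries apart. The log2 change from day 0 in TKO minus that in WT was -0.38 at day 4 and -0.80 at day 7 for Trim71, -0.56 at day 7 for Igf2bp1, and 0.84 at day 2 and -0.75 at day 7 for Igf2bp2.

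For the other genes named, the change of the TKO over WT difference between day 0 and day 7 was tested as an interaction in the edgeR fit, adjusted over all genes. It passed for 15 of 27 genes named, and for 19 of all 57 list genes. Many genes were named for their calls at day 0 or day 7 in these same libraries, which raises the share among them. The share over all genes tested was not counted, so these counts are not a result about the lists. Of the processing genes, the difference changed by -0.55 for Xpo5, -1.18 for Msi1, 0.64 for Prkra and 1.83 for Ago4. Of the let-7 targets, it changed by -0.72 for Hmga1, -1.30 for Nr6a1, -0.68 for Arid3a, -0.71 for Myc, -0.54 for Cdk6 and -0.54 for Hic2, and by 1.48 for Igdcc3. Of the Trim71 targets, it changed by 1.53 for Cdkn1a, 1.51 for Rbl2, 0.91 for Mbnl1 and -3.83 for Egr1.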

How the results depend on the processing

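The signs of the 70 log2 differences of the 7 genes (10 comparisons) were kept in all 70 with RLE size factors, no filter, DESeq2, the replicate block or the compared libraries alone, and in 69 with the stricter filter (Trim71 at day 2, 0.00) or the effective-length offset (Igf2bp1 in WT at day 4, 0.00). Leaving out 1 library changed 7 signs, all of values within 0.14 of 0. Depth limits Lin28b at day 0 and Ago4, both at a few CPM or less.

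Of the counts, the compared libraries alone gave 359 genes called at day 0 and 2821 at day 4, 0 processing genes and 0 targets at day 0, 1 processing gene and 7 targets at day 4, and 12 processing genes at day 7. The effective-length offset gave 1611 genes at day 2, no filter gave 7 processing genes in TKO over time, and the F test gave 128 transcript usage calls at day 2 and 473 at day 7; the F test was the planned one, and the Simes p was chosen after seeing the data. Leaving out 1 library gave 687 to 4294, 579 to 2008, 3837 to 4346 and 6212 to 6744 genes called at days 0, 2, 4 and 7, and 112 to 1319, 60 to 308, 94 to 106 and 154 to 209 usage calls. It gave 1 to 10, 1 to 3, 2 to 3 and 4 to 6 processing genes and 1 to 9, 2 to 6, 7 to 10 and 11 to 15 targets. Over time it gave 11218 to 11448 genes, 5 to 7 processing genes and 22 to 23 targets in TKO, and 10774 to 12037, 8 to 15 and 26 to 28 in WT. The cause was not tested.

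The replicate numbers do not pair the libraries: deviations of same-numbered libraries correlated between -0.69 and 0.14 and over 0.1 in 2 of 28 pairs of groups. At -0.69, libraries of opposite number deviated alike in that pair of groups. Libraries can thus share variation that a block on the number does not absorb. With the number as a block, 1992, 2098, 4972 and 7880 genes were called at days 0, 2, 4 and 7, against 2343, 2482, 5342 and 8228 without it, and the calls of Xpo5 at day 0 and in TKO over time and of Hnrnpa1 at day 2 were lost (edgeR adjusted p = 0.0599, 0.0517 and 0.0561).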

Other observations

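The RefSeq table of promoters (GRCm38.p6, 250 bases before to 50 after the start) matched 6 of the 7 genes. The CpG pair, searched on 1 strand since it reads the same on both, occurred 47 times in the promoter of Igf2bp2, 25 times in that of Igf2bp3, 19 in Trim71, 12 in Hmga2, 10 in Lin28a and 8 in Lin28b, against a median of 7 over 32851 promoters. Igf2bp2 thus had more CpG than 98.6% of promoters and Lin28b more than 51.4%. Igf2bp1 has no entry. Methylation was not analysed here.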
